A study of Mus musculus with 12 samples.

Results

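The genes described here are 37 genes of the cell cycle and of DNA replication, chosen by name: a proliferation marker (Mki67), 9 genes of the replication fork and its licensing, 4 of nucleotide supply, 6 cyclins and kinases of S and M phase, 7 of mitosis, 3 D-type cyclins, 3 inhibitors of cyclin-dependent kinases and 4 of the E2F and RB axis. All 37 were found among the 54532 genes of the table, and all 37 were among the 14506 genes with enough counts to be tested. The cells were resident peritoneal macrophages, which live in the fluid of the abdominal cavity, taken from C57BL/6 mice. They were kept in DMEM for 24 h and then received lipopolysaccharide (LPS), a component of bacterial outer membranes sensed through Toll-like receptor 4, at 10 ng/ml for 2 h, or none. RNA-seq was done on 12 libraries, 3 in each of 4 groups: MOPS plus LPS, HEPES plus LPS, MOPS alone and HEPES alone, by the buffer of the medium. The design text names pH 6.8 before pH 7.4 and MOPS before HEPES, and only this word order ties MOPS to pH 6.8. Buffer and pH therefore cannot be told apart, and the groups are called by their buffer. The labels do not say whether replicates came from separate animals or cultures, so every p-value reflects only how far these libraries spread, which may be technical.

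As background, cells enter the cycle when D-type cyclins with their kinases inactivate RB, which frees E2F factors to switch on genes for DNA synthesis. The MCM helicase is loaded on origins with the help of CDT1, geminin stops a second loading, and PCNA holds the polymerases on DNA. Cyclins A and B with CDK1, and the kinases PLK1, AURKA and AURKB, then drive mitosis, while p21 (Cdkn1a), p27 (Cdkn1b) and p18 (Cdkn2c) hold cyclin-dependent kinases back. Resident peritoneal macrophages are known as mostly quiescent cells that divide at a low rate in the body, and Ki-67, the protein of Mki67, is widely stained as a mark of cells in cycle.

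Library totals were 20114613 to 24734853 counts. Levels are given as CPM, which are counts scaled to library size and, by TMM, to library composition, and changes as log2 fold change ± standard error. LPS shifted the composition of the libraries, with TMM factors of 0.80 to 0.863 in the LPS libraries, against 1.19 to 1.22 in the untreated ones. Scaling by total counts alone moved the median of all genes by -0.51 (log2) for LPS in MOPS and -0.58 for LPS in HEPES, so the changes below are relative to the bulk of genes. The 8 macrophage markers checked, among them Adgre1, Csf1r and Lyz2, all had counts, with a summed level of 21419.9 to 24225 CPM in MOPS plus LPS, 33708 to 35380.0 CPM in HEPES plus LPS, 17056 to 17304 CPM in MOPS and 26236 to 27599.5 CPM in HEPES. Peritoneal lavage can also hold B cells, whose 10 markers all had counts and summed to 133 to 144 CPM in MOPS plus LPS and 36.8 to 42 CPM in HEPES plus LPS, against 220.5 to 229 CPM in MOPS and 109 to 181 CPM in HEPES. The macrophage markers, tested singly, went both ways. Without LPS 3 were higher and 3 lower in MOPS than in HEPES, and with LPS 2 were higher and 4 lower. Of all genes tested, 24.3% were higher and 25.4% lower without LPS, and 26.9% each way with it. On LPS, 6 of these markers rose and 2 fell in MOPS, and 4 rose and 3 fell in HEPES. Of all genes, 34.1% rose and 34.9% fell in MOPS, and 35.6% rose and 41.2% fell in HEPES. With bulk RNA, fewer cells of a type and less RNA per cell cannot be told apart.

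Mki67 (ENSMUSG00000031004, chr7:135689784-135716361, minus strand, mm10) rose with LPS by more, on the log2 scale, than any other of the 37 genes in both media. Its level was 321, 329 and 307 CPM in MOPS plus LPS and 471, 444 and 440.2 CPM in HEPES plus LPS, against 18.3, 22.6 and 21.9 CPM in MOPS alone and 25.9, 24.9 and 21.3 CPM in HEPES alone. Every library with LPS stood far above every library without it. The change was 3.92 ± 0.068 in MOPS (15.2-fold, adjusted p = 1.69e-21, edgeR) and 4.23 ± 0.067 in HEPES (18.7-fold, adjusted p = 2.21e-22, edgeR). Ordered by size of rise, Mki67 was number 207 of 14506 genes in MOPS and number 227 in HEPES. The only annotated gene that overlaps it, Gm45240 on the other strand, held 8 counts over the 12 libraries, while Mki67 held 47417.

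Most other proliferation genes did not rise with it: of 26, Pcna, Tyms and Tk1 did, and they are described with their roles. Most genes of any kind did not rise either, as 34.1% of all genes tested rose in MOPS and 35.6% in HEPES. Top2a, the topoisomerase that untangles DNA in S phase and mitosis and usually rises and falls with Mki67 in dividing cells, had 7.15, 4.87 and 5.18 CPM in MOPS plus LPS and 4.84, 5.64 and 4.73 CPM in HEPES plus LPS, against 6.13, 6.39 and 5.13 CPM in MOPS alone and 6.45, 5.42 and 5.42 CPM in HEPES alone. Its groups overlapped in both media, with a change of -0.044 ± 0.14 in MOPS (95% interval -0.34 to 0.25, adjusted p = 0.798, edgeR) and -0.18 ± 0.15 in HEPES (95% interval -0.48 to 0.12, adjusted p = 0.253, edgeR). With total counts alone as the scaling, Top2a was called lower, at -0.56 in MOPS (adjusted p = 7.05e-04, edgeR) and -0.77 in HEPES (1.54e-05). Cdk1, the kinase that triggers mitosis, had 2.47, 3.4 and 4.46 CPM in MOPS plus LPS and 2.99, 3.94 and 3.95 CPM in HEPES plus LPS, against 3.56, 3.16 and 3.5 CPM in MOPS alone and 3.31, 4.33 and 3.1 CPM in HEPES alone, again with overlapping groups. Its change was 0.013 ± 0.19 in MOPS (95% interval -0.37 to 0.40) and 0.018 ± 0.19 in HEPES (95% interval -0.36 to 0.40), and neither passed the test. With the same scaling, Cdk1 turned to -0.50 in MOPS (adjusted p = 0.0169, edgeR) and -0.57 in HEPES (0.00612).

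The ratio of Mki67 counts to Top2a counts showed the split in every library. It was 44.9 to 67.5 in MOPS plus LPS and 78.8 to 97.3 in HEPES plus LPS, against 2.99 to 4.27 in MOPS and 3.94 to 4.61 in HEPES. Summed, the 13 cyclin, kinase and mitosis genes of the members reached 16.7 to 19.2 CPM in MOPS plus LPS and 15.7 to 16.1 CPM in HEPES plus LPS, against 22.2 to 26.6 CPM in MOPS and 21.9 to 25.4 CPM in HEPES. Their sum was thus lower in every LPS library than in every untreated one, while Mki67 was higher. All 26 proliferation genes other than Mki67, with replication and nucleotide genes included, summed to 342 to 353 CPM in MOPS plus LPS and 336 to 357 CPM in HEPES plus LPS, against 315 to 324 CPM in MOPS and 354 to 380.1 CPM in HEPES. Pcna was the largest single part of this larger sum. These sums describe the members and carry no test.

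**Figure D1:**
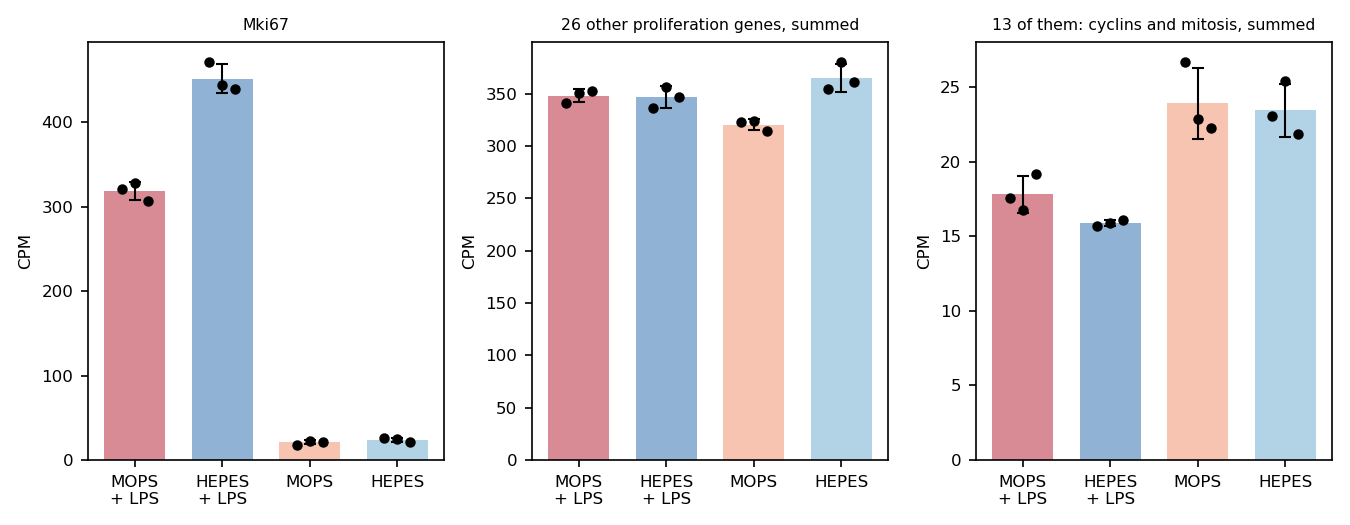
Mki67 (left), the sum of 26 other proliferation genes (middle) and the sum of the 13 cyclin, kinase and mitosis genes among them (right) in CPM, by group. Bars are group means with SD (n = 3) and points are libraries; Mki67 reaches 307 to 471 CPM with LPS while the sum on the right is at 15.7 to 19.2 CPM with LPS and 21.9 to 26.6 CPM without it.

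Per kilobase of gene length, the scale on which genes can be set beside each other, Mki67 averaged 31.7 CPM per kb in MOPS plus LPS and 44.9 in HEPES plus LPS, against 2.08 in MOPS and 2.39 in HEPES. Top2a averaged 0.636 CPM per kb in MOPS plus LPS and 0.563 in HEPES plus LPS, against 0.653 in MOPS and 0.639 in HEPES. With LPS, of the 37 genes only Cdkn1a and Pcna stood above Mki67 on this scale, at 268 and 91.7 CPM per kb in MOPS and 346 and 92.2 in HEPES.

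Because Mki67 and Top2a parted while E2f8 rose with LPS, the 250 bases before the start of these 3 genes are shown, from RefSeq promoter windows on build GRCm38.p6, 5′ to 3′ on the gene's own strand. Capitals mark matches to 4 motifs searched on both strands: the CHR element (TTTGAA or TTCGAA) and the CCAAT box (CCAAT), which are known from promoters of mitotic genes, the E2F site (TTTCCCGC or TTTGGCGC) and the NF-kappaB consensus, the site bound by the factor that LPS activates. No matches of different motifs overlap in these 3 windows.
Mki67, chr7:135716380-135716629, minus strand: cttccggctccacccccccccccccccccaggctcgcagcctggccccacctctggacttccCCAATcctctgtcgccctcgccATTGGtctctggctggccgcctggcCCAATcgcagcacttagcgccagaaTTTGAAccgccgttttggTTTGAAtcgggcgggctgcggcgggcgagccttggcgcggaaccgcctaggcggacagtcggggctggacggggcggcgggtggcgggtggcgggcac
Top2a, chr11:99024190-99024439, minus strand: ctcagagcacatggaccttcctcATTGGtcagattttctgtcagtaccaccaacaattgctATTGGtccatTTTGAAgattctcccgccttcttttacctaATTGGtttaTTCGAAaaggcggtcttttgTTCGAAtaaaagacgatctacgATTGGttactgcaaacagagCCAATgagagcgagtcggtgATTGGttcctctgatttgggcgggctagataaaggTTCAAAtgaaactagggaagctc
E2f8, chr7:48881597-48881846, minus strand: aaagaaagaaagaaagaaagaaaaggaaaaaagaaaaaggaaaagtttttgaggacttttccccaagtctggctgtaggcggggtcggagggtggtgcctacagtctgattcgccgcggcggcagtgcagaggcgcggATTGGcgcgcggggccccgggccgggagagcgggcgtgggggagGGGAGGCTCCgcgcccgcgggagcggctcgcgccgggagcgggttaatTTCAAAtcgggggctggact
Positions count back from the start and give the leftmost base of a match. The Mki67 window holds CHR letters at -116 and -98 and CCAAT boxes at -188, -166 and -141. The Top2a window holds 4 CHR matches, at -179, -140, -120 and -23, and 6 CCAAT boxes. The E2f8 window holds a CHR match at -20, a CCAAT box at -112 and an NF-kappaB match at -68. Promoter windows were at hand for 29 of the 37 genes, in 34 windows, since some genes have more than 1 start. At least 1 window held a CCAAT box in 21 of these genes, CHR letters in 9, an E2F site in 3 (Mcm5, Mcm6 and Mcm7) and the NF-kappaB consensus in 3 (Birc5, E2f8 and Mcm7). Counted by window in place of gene, 23, 9, 3 and 3 of the 34 windows held a match, in that order of motifs. Among all 32851 RefSeq windows of the same length the shares were 33.8%, 17.1%, 1.3% and 7.25% in the same order. Of the 3 genes with the NF-kappaB consensus, E2f8 rose with LPS, Mcm7 fell and Birc5 did not pass the test in either medium. The windows of Mki67, Pcna, Tyms, Tk1 and Cdkn1a, which rose, held no such match. A match describes letters only.

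In all, 7 members rose and 17 fell with LPS in MOPS, 18.9% and 45.9% of the 37, where 34.1% of all genes tested rose and 34.9% fell. In HEPES 7 rose and 22 fell, 18.9% and 59.5%, where 35.6% of all genes rose and 41.2% fell. Genes of replication and its licensing mostly fell with LPS. Of the 9, 6 fell and 1 rose in MOPS, and 6 fell and 1 rose in HEPES. The largest fall of the 37 in both media was that of Gmnn, which encodes geminin, the inhibitor of CDT1. It had 1.54, 1.47 and 1.76 CPM in MOPS plus LPS and 0.327, 0.692 and 1.5 CPM in HEPES plus LPS, against 6.6, 6.16 and 6.6 CPM in MOPS alone and 9.32, 7.13 and 6.64 CPM in HEPES alone, and groups with and without LPS did not overlap. Its change was -2.02 ± 0.22 in MOPS (adjusted p = 8.51e-09, edgeR) and -3.2 ± 0.25 in HEPES (adjusted p = 8.32e-12, edgeR). Cdt1 itself, the loader of the helicase, had 11.2, 11.6 and 13.2 CPM in MOPS plus LPS and 14.6, 14.6 and 14.9 CPM in HEPES plus LPS, against 24.8, 25.4 and 23.5 CPM in MOPS alone and 16.4, 18 and 16.8 CPM in HEPES alone. It fell by far more in MOPS (-1.04 ± 0.078, adjusted p = 3.32e-13, edgeR) than in HEPES (-0.21 ± 0.078, adjusted p = 0.0152, edgeR), and DESeq2 did not call the small fall in HEPES (adjusted p = 0.0801), nor did a fit of its groups alone (adjusted p = 0.0536, edgeR). It was also lost on leaving out 1 library, named here by group and replicate number, with adjusted p by edgeR in brackets: HEPES 5 (0.0765), MOPS plus LPS 8 (0.0545), HEPES plus LPS 10 (0.106), HEPES plus LPS 11 (0.0989), HEPES plus LPS 12 (0.081).

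The 6 subunits of the MCM helicase did not move as one. Mcm7 had 5.24, 5.67 and 4.74 CPM in MOPS plus LPS and 3.48, 3.35 and 3.23 CPM in HEPES plus LPS, against 13.9, 12 and 12.7 CPM in MOPS alone and 9.55, 9.05 and 8.07 CPM in HEPES alone, a fall of 1.3 in MOPS and 1.41 in HEPES on the log2 scale. Mcm2 fell too (-0.78 ± 0.096 in MOPS and -1.24 ± 0.098 in HEPES), and Mcm3 (-0.26 ± 0.067 and -0.37 ± 0.066) and Mcm6 (-0.17 ± 0.066 and -0.44 ± 0.066) fell by less. The call of Mcm6 in MOPS was lost on leaving out 1 of these libraries (adjusted p by edgeR): MOPS 1 (0.0675), MOPS 2 (0.0564), MOPS plus LPS 7 (0.161). Mcm4 (-0.12 ± 0.087 and -0.16 ± 0.088) and Mcm5 (-0.047 ± 0.15 and 0.024 ± 0.14) did not pass the test in either medium. With total counts alone both were called lower, Mcm4 at -0.63 in MOPS and -0.74 in HEPES and Mcm5 at -0.56 in MOPS and, turned in sign, -0.56 in HEPES. Mcm4 was also called lower in HEPES with no low-count filter (0.0293) and without HEPES 6 (0.0137), with adjusted p by edgeR in brackets. Pcna, the sliding clamp, went the other way, with 218, 224 and 219 CPM in MOPS plus LPS and 215, 229 and 220.3 CPM in HEPES plus LPS, against 145, 150.1 and 148 CPM in MOPS alone and 174, 191 and 192 CPM in HEPES alone. Its change was 0.58 ± 0.041 in MOPS and 0.25 ± 0.041 in HEPES relative to the bulk of genes. Scaled by total counts alone, Pcna was at 0.064 in MOPS, not past the test, and turned to -0.33 in HEPES.

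The 4 enzymes of nucleotide supply split into pairs. Ribonucleotide reductase, which makes the building blocks of DNA, fell: Rrm1, its large subunit, had 6.84, 7.61 and 6.34 CPM in MOPS plus LPS and 6.8, 6.7 and 6.29 CPM in HEPES plus LPS, against 9.33, 9.02 and 9.49 CPM in MOPS alone and 16.1, 16.7 and 12.5 CPM in HEPES alone. The change of Rrm1 was -0.42 ± 0.12 in MOPS and -1.19 ± 0.11 in HEPES. Rrm2, the small subunit whose level peaks in S phase, was low throughout, with at most 1.26 CPM in any library, and its change was -0.37 ± 0.35 in MOPS, not past the test (adjusted p = 0.357, edgeR), and -1.75 ± 0.37 in HEPES. The thymidylate genes went up. Tyms, thymidylate synthase, had 1.9, 1.75 and 2.15 CPM in MOPS plus LPS and 4.46, 5.06 and 4.51 CPM in HEPES plus LPS, against 1.27, 0.899 and 1.18 CPM in MOPS alone and 2.09, 2.1 and 1.77 CPM in HEPES alone, a change of 0.80 ± 0.22 in MOPS and 1.23 ± 0.18 in HEPES. Tk1, thymidine kinase 1, changed by 0.73 ± 0.14 and 0.52 ± 0.16. With total counts alone, neither passed the test in MOPS (Tyms 0.29, Tk1 0.22), and Tk1 turned to -0.068 in HEPES.

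Among the 6 genes formed by Cdk1 and the cyclins of S and M phase, 2 fell in MOPS and 3 in HEPES, 33.3% and 50%, where 34.9% and 41.2% of all genes fell. In the main test by edgeR, and by DESeq2, 0 of the 6 rose. Ccne2 in HEPES (0.54 ± 0.26, adjusted p = 0.0561, edgeR, and an unadjusted p under 0.05) was called higher by edgeR under other settings, given with the adjusted p: with RLE size factors (0.0398), with the groups fitted alone (0.0379), without HEPES 5 (0.0415), without MOPS plus LPS 7 (0.0423), without MOPS plus LPS 8 (0.0357), without MOPS plus LPS 9 (0.0472) and without HEPES plus LPS 10 (0.0419). Ccna2, cyclin A2, had 0.668, 0.52 and 0.441 CPM in MOPS plus LPS and 0.871, 0.639 and 1.45 CPM in HEPES plus LPS, against 1.66, 1.33 and 1.3 CPM in MOPS alone and 2.03, 2.06 and 1.7 CPM in HEPES alone, a change of -1.38 ± 0.32 in MOPS and -0.97 ± 0.27 in HEPES. Ccnb1, cyclin B1, had 0.308, 0.804 and 1.05 CPM in MOPS plus LPS and 0.272, 0.585 and 0.389 CPM in HEPES plus LPS, against 1.38, 1.3 and 0.896 CPM in MOPS alone and 1.79, 1.47 and 1.51 CPM in HEPES alone. It fell in HEPES (-1.92 ± 0.37, adjusted p = 2.30e-05, edgeR), and its value in MOPS was -0.74 ± 0.34 (adjusted p = 0.0537, edgeR). Other settings called it lower in MOPS (adjusted p by edgeR): with no low-count filter (0.0489), with a filter of 1 CPM in 3 libraries (0.0458), without MOPS 3 (0.0273), without MOPS plus LPS 9 (0.0163), without HEPES plus LPS 10 (0.0483) and without HEPES plus LPS 11 (0.0499). Ccne1, cyclin E1, changed by -0.83 ± 0.31 and -1.1 ± 0.39. Its call in MOPS was lost on leaving out any 1 of MOPS 1 (0.0663), MOPS plus LPS 7 (0.0798), MOPS plus LPS 9 (0.109), and its call in HEPES on leaving out HEPES plus LPS 12 (0.0502), with adjusted p by edgeR in brackets. Ccnb2 did not pass the test in either medium, though edgeR called it lower in HEPES without HEPES 4 (0.028), and Ccne2 did not pass in MOPS. The 5 cyclins stood at 0.272 to 2.06 CPM in single libraries, with wide errors.

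The 7 mitosis genes were low as well, with Top2a the highest at 4.73 to 7.15 CPM. Of them 2 fell in MOPS and 4 in HEPES, 28.6% and 57.1%, where 34.9% and 41.2% of all genes fell, and 0 rose by edgeR or DESeq2 or at an unadjusted p under 0.05 by edgeR. Aurkb, the kinase of the chromosomal passenger complex, had 1.18, 0.52 and 0.331 CPM in MOPS plus LPS and 0.381, 0.0532 and 0.111 CPM in HEPES plus LPS, against 1.7, 1.56 and 1.79 CPM in MOPS alone and 1.49, 1.64 and 1.36 CPM in HEPES alone, a change of -1.3 ± 0.34 in MOPS and -3.01 ± 0.46 in HEPES. Cdc20, the activator of the anaphase-promoting complex, had 0.823, 0.709 and 0.882 CPM in MOPS plus LPS and 0.653, 0.479 and 0.389 CPM in HEPES plus LPS, against 2.29, 1.93 and 2.28 CPM in MOPS alone and 1.32, 2.03 and 1.36 CPM in HEPES alone, a change of -1.43 ± 0.27 and -1.62 ± 0.31. Plk1, polo-like kinase 1, had 0.514, 0.757 and 0.882 CPM in MOPS plus LPS and 0.327, 0.106 and 0.0556 CPM in HEPES plus LPS, against 1.07, 1.23 and 0.937 CPM in MOPS alone and 1.08, 0.874 and 0.479 CPM in HEPES alone. It fell in HEPES (-2.29 ± 0.51, adjusted p = 1.74e-04, edgeR) and had -0.60 ± 0.36 in MOPS (adjusted p = 0.139, edgeR). Bub1, a kinase of the spindle checkpoint, fell in HEPES (-1.29 ± 0.45), a call that was lost on leaving out HEPES 5 (0.0673), HEPES plus LPS 11 (0.0905) (adjusted p by edgeR). Aurka and Birc5 did not pass the test in either medium, with Aurka at -0.44 ± 0.29 in MOPS and -0.59 ± 0.28 in HEPES and Birc5 at -0.72 ± 0.49 and -0.89 ± 0.51. Other settings called them lower (adjusted p by edgeR), in HEPES Aurka with no low-count filter (0.036) and without HEPES plus LPS 10 (0.0126) and Birc5 without HEPES 4 (0.0304), and in MOPS Birc5 without MOPS 2 (0.0396).

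The 3 D-type cyclins, which link outside signals to the cycle, moved in opposite directions. Ccnd1 (ENSMUSG00000070348, chr7:144929931-144939925) had 3.55, 4.07 and 4.52 CPM in MOPS plus LPS and 3.97, 4.36 and 4.95 CPM in HEPES plus LPS, against 8.07, 7.96 and 7.74 CPM in MOPS alone and 18.2, 18.8 and 21.9 CPM in HEPES alone. The untreated HEPES libraries stood apart at the top, and both LPS groups overlapped at the bottom. Ccnd1 fell by 0.97 in MOPS and by 2.15 in HEPES on the log2 scale (adjusted p = 3.70e-08 and 2.70e-17, edgeR). Ccnd3 changed by -0.65 ± 0.091 and -1.1 ± 0.093. Ccnd2 rose, with 9.97, 9.27 and 9.76 CPM in MOPS plus LPS and 11.7, 14.1 and 12 CPM in HEPES plus LPS, against 2.33, 2.56 and 2.28 CPM in MOPS alone and 1.92, 3.56 and 5.2 CPM in HEPES alone, a change of 2.01 ± 0.24 in MOPS (adjusted p = 4.68e-06, edgeR) and 1.83 ± 0.22 in HEPES (adjusted p = 3.50e-06, edgeR).

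The inhibitors of cyclin-dependent kinases also divided. Cdkn1a (ENSMUSG00000023067, chr17:29090976-29100727, plus strand), which encodes p21, a target of p53, had 989, 922 and 944 CPM in MOPS plus LPS and 1230.1, 1244 and 1217 CPM in HEPES plus LPS, against 194, 198 and 197 CPM in MOPS alone and 159, 175 and 176 CPM in HEPES alone. It was the member with the largest rise after Mki67 in both media, with 2.28 ± 0.041 in MOPS (4.86-fold, adjusted p = 2.07e-29, edgeR) and 2.86 ± 0.042 in HEPES (7.25-fold, adjusted p = 6.23e-32, edgeR). Cdkn1b, which encodes p27, had 44, 35.2 and 35.8 CPM in MOPS plus LPS and 37.1, 35.4 and 36.4 CPM in HEPES plus LPS, against 77.8, 74.7 and 76.9 CPM in MOPS alone and 62.9, 62 and 59.8 CPM in HEPES alone, and fell by 1.0 in MOPS and 0.76 in HEPES on the log2 scale. Cdkn2c, which encodes p18, the inhibitor of CDK4 and CDK6, had 4.68, 5.01 and 4.74 CPM in MOPS plus LPS and 2.72, 2.45 and 2.73 CPM in HEPES plus LPS, against 15.1, 15.5 and 16.2 CPM in MOPS alone and 16.2, 14 and 14.7 CPM in HEPES alone. Its change was -1.7 ± 0.10 in MOPS and -2.51 ± 0.12 in HEPES, with no overlap between groups with and without LPS.

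On the E2F and RB axis, E2f8, a repressor among the E2F factors, rose with LPS, while of the activators E2f1 fell in both media and E2f2 in HEPES. E2f8 had 3.29, 3.22 and 2.54 CPM in MOPS plus LPS and 4.63, 4.31 and 3.67 CPM in HEPES plus LPS, against 1.07, 1.2 and 1.67 CPM in MOPS alone and 1.49, 0.909 and 1.07 CPM in HEPES alone, a change of 1.21 ± 0.22 in MOPS and 1.86 ± 0.22 in HEPES. E2f1 had 6.63, 6.1 and 6.83 CPM in MOPS plus LPS and 6.04, 5.53 and 5.06 CPM in HEPES plus LPS, against 10.3, 10.8 and 11.5 CPM in MOPS alone and 14.6, 14.4 and 14 CPM in HEPES alone, and changed by -0.74 ± 0.10 and -1.36 ± 0.10. E2f2 fell in HEPES (-1.27 ± 0.25) and was at -0.44 ± 0.22 in MOPS (adjusted p = 0.0721, edgeR). Rb1, which encodes the retinoblastoma protein, had 62.7, 66.7 and 62.8 CPM in MOPS plus LPS and 41.9, 45.6 and 39.9 CPM in HEPES plus LPS, against 84.5, 83.4 and 89.5 CPM in MOPS alone and 71.6, 66.4 and 66.1 CPM in HEPES alone, a change of -0.42 ± 0.050 and -0.68 ± 0.053.

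**Figure D2:**
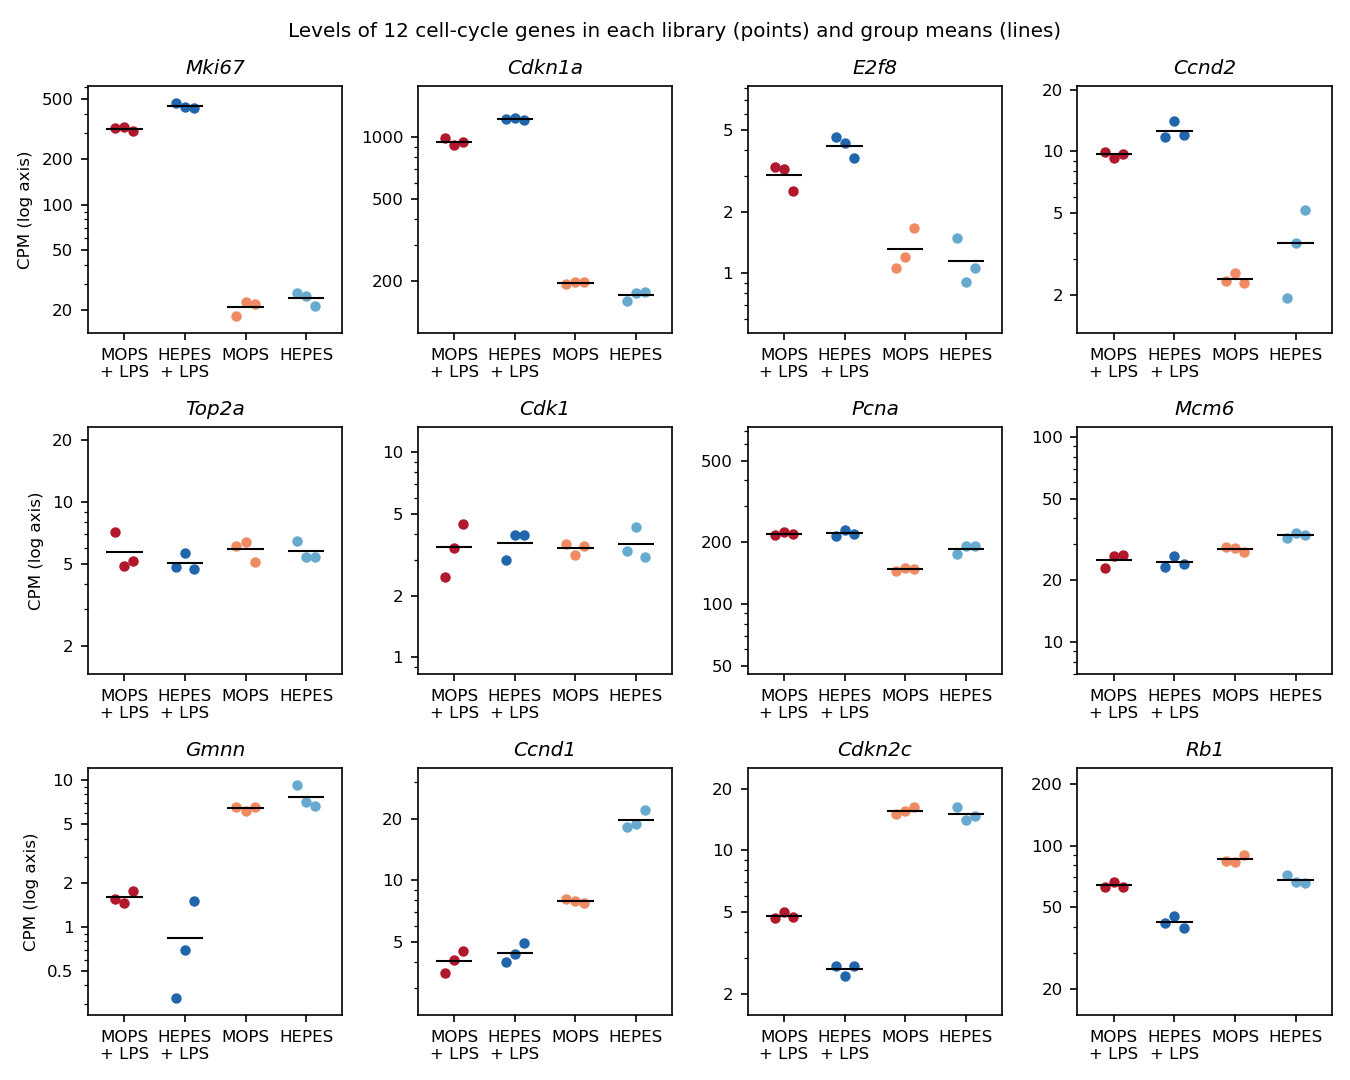
Levels of 12 of the genes in CPM on a log axis, each panel with its own range; points are the 3 libraries of a group and lines the group means. Mki67, Cdkn1a, E2f8 and Ccnd2 are higher with LPS in both media, Gmnn, Ccnd1, Cdkn2c and Rb1 are lower, and Top2a and Cdk1 overlap between groups.

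The same 7 genes rose in both media (Mki67, Pcna, Tyms, Tk1, Ccnd2, Cdkn1a and E2f8), and the 17 that fell in MOPS all fell in HEPES. The share of all genes that moved alike in both media is not given here. The median change of the members was -0.44 in MOPS and -0.76 in HEPES, where the median of all genes tested was -0.035 and -0.084. With total counts alone as the scaling, the 13 members not called in MOPS and 7 of the 8 not called in HEPES were called lower. In all 4 then rose and 30 fell in MOPS and 5 rose and 30 fell in HEPES, while over all genes 2084 rose and 9506 fell in MOPS, against 4945 and 5062 with TMM, and 2502 rose and 9666 fell in HEPES, against 5168 and 5982. Most B cell markers fell with LPS: of 10, 8 fell in MOPS and 10 in HEPES, where 34.9% and 41.2% of all genes fell. In either medium 0 of these markers rose, also at an unadjusted p under 0.05. Their part in the falls was not tested. Their summed level was lowest in the HEPES libraries with LPS, and the part of B cells in the level of Mki67 was not tested.

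**Figure D3:**
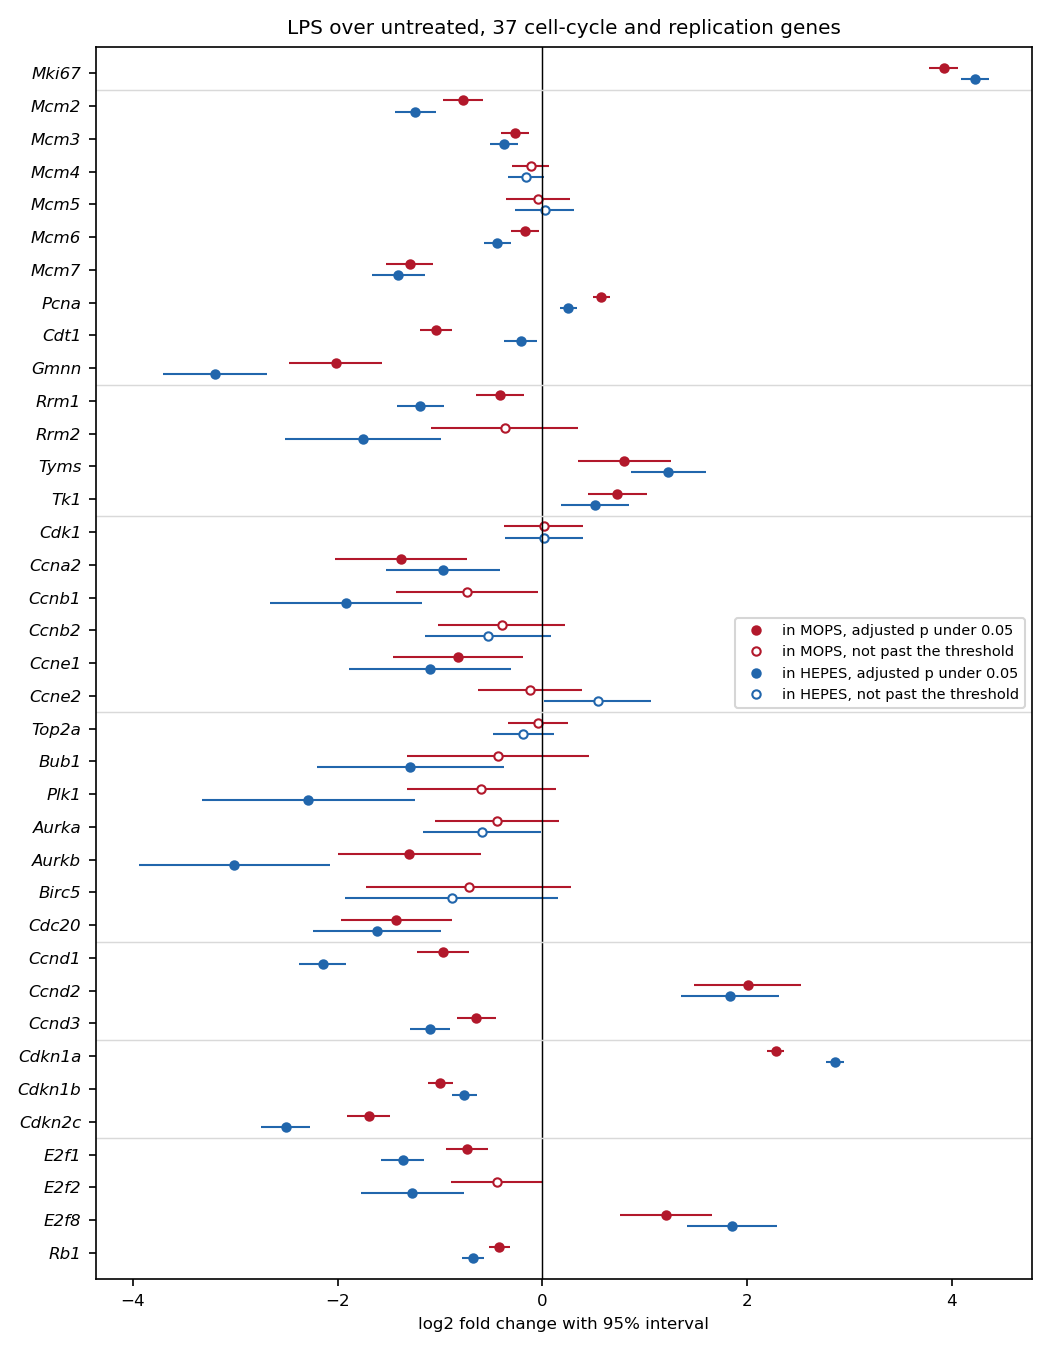
Log2 fold change of LPS over untreated with its 95% interval for each of the 37 genes in MOPS (red, upper point) and HEPES (blue, lower point), grouped by role; filled points are past an adjusted p of 0.05. Mki67 stands alone at 3.92 in MOPS and 4.23 in HEPES, while most other genes lie left of 0.

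The 3 wider lists hold other genes of the same processes. For comparison, 34.1% of all genes tested rose and 34.9% fell in MOPS, and 35.6% rose and 41.2% fell in HEPES. Among 48 further genes of G2 and mitosis, 46 were tested. In MOPS 4 rose and 24 fell, 8.7% and 52.2% (median -0.77). In HEPES 4 rose and 33 fell, 8.7% and 71.7% (median -1.2). Cdc25b, a phosphatase that activates CDK1, averaged 1.97 ± 0.155 CPM in MOPS plus LPS and 0.453 ± 0.298 CPM in HEPES plus LPS, against 13.7 ± 0.931 CPM in MOPS and 9.2 ± 0.465 CPM in HEPES (SD, n = 3 each), a change of -2.79 ± 0.15 and -4.33 ± 0.22. Cenpa, the histone of centromeres, changed by -1.06 in MOPS and -1.85 ± 0.10 in HEPES, and Incenp, the scaffold of the passenger complex, by -1.21 and -1.9 ± 0.088. A few rose with LPS in both media, Espl1, Cks2 and Foxm1 among them. Espl1, which encodes separase, the protease that parts sister chromatids, averaged 37.9 ± 3.14 CPM in MOPS plus LPS and 21.8 ± 1.15 CPM in HEPES plus LPS, against 8.66 ± 1.04 CPM in MOPS and 12.2 ± 1.31 CPM in HEPES, a change of 2.13 ± 0.089 and 0.84 ± 0.089. Cks2, a small subunit bound to cyclin-dependent kinases, changed by 1.76 ± 0.099 and 1.92 ± 0.11. Foxm1 (0.46 and 0.69) was named after its values were seen.

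Among 45 further genes of replication and nucleotide supply, all tested, 2 rose and 26 fell in MOPS, 4.44% and 57.8% (median -0.48). In HEPES 4 rose and 32 fell, 8.89% and 71.1% (median -0.70). Dnmt1, which copies DNA methylation after replication, changed by -1.14 ± 0.055 in MOPS and -2.46 ± 0.063 in HEPES, Rfc1, the large subunit of the clamp loader, by -1.41 ± 0.071 and -1.99 ± 0.075, and Samhd1, which breaks down deoxynucleotides in non-dividing cells, by -0.68 ± 0.044 and -1.63 ± 0.048. Genes of G1 and S phase entry went both ways, with 25 of 26 tested. In MOPS 12 rose and 9 fell, 48% and 36% (median 0.17), where 34.1% and 34.9% of all genes did. In HEPES 12 rose and 10 fell, 48% and 40% (median 0.045), where 35.6% and 41.2% of all genes did. The shares that fell thus lie near the background. Genes of this list that rose include brakes and drivers of growth side by side. Mdm2, the p53 ubiquitin ligase, changed by 2.37 ± 0.043 and 2.93 ± 0.044, and the antiproliferative Btg1 by 2.23 ± 0.039 and 2.45 ± 0.039 and Btg2 by 1.82 ± 0.045 and 2.24 ± 0.045. Myc, the growth-promoting transcription factor, rose by 1.14 ± 0.066 and 1.61 ± 0.064, and Trp53 by 0.58 ± 0.066 and 0.74 ± 0.066. The kinase genes Cdk2 (-0.95 ± 0.079 and -1.28 ± 0.089) and Cdk4 (-0.18 ± 0.047 and -0.60 ± 0.046) fell, and Cdk6 rose (0.45 ± 0.069 and 0.22 ± 0.059).

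**Figure D4:**
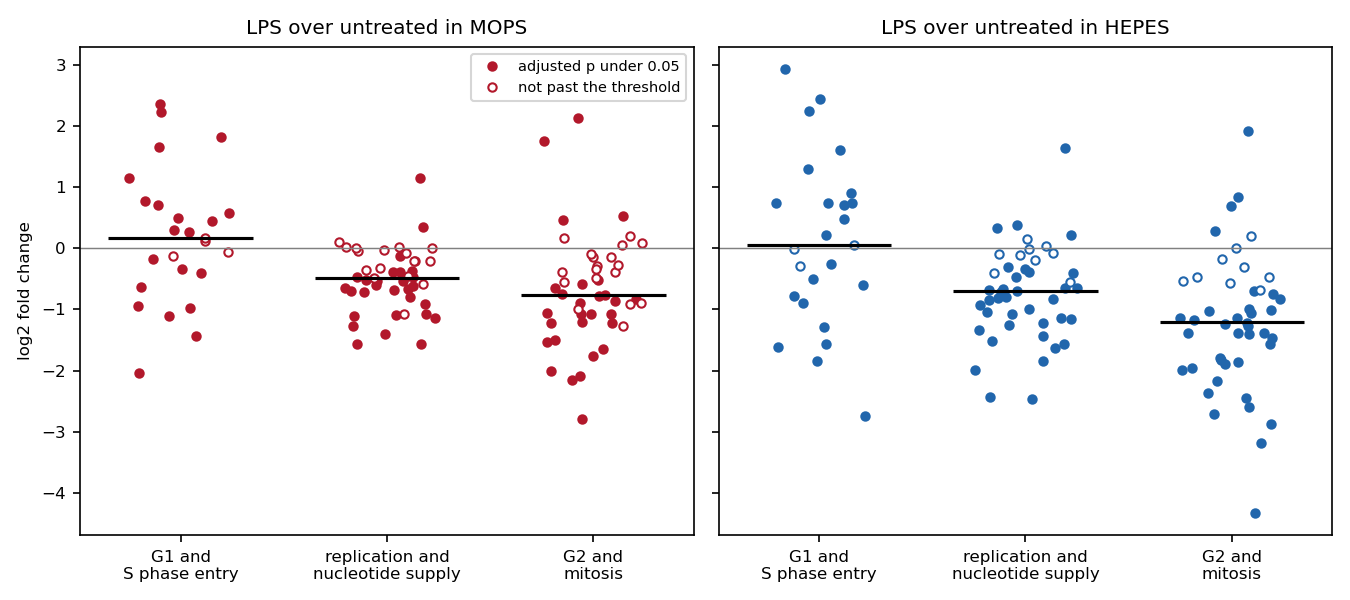
Log2 fold change of LPS over untreated for the tested genes of the 3 wider lists, in MOPS (left) and HEPES (right); each point is a gene, filled where its adjusted p is under 0.05, and black lines are medians. The medians of replication and of mitosis genes lie below 0 in both media, at -0.48 and -0.77 in MOPS and -0.70 and -1.2 in HEPES. The median of all genes tested was -0.035 in MOPS and -0.084 in HEPES.

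Between the untreated media, Ccnd1 differed most among the members, at 8.07, 7.96 and 7.74 CPM in MOPS against 18.2, 18.8 and 21.9 CPM in HEPES (-1.31 ± 0.098, 2.48-fold lower in MOPS, adjusted p = 1.11e-12, edgeR). Rrm1 (-0.70 ± 0.10), Tyms (-0.84 ± 0.21), Pcna (-0.33 ± 0.041), E2f1 (-0.40 ± 0.089) and Mcm6 (-0.23 ± 0.062) were lower in MOPS too, while Cdt1 (0.53 ± 0.071), Mcm7 (0.53 ± 0.099), Tk1 (0.59 ± 0.15), Rb1 (0.33 ± 0.049), Cdkn1b (0.31 ± 0.055) and Cdkn1a (0.21 ± 0.040) were higher. In all 7 members were higher and 10 lower in MOPS, 18.9% and 27%, where 24.3% of all genes tested were higher and 25.4% lower, so the shares lie near the background. Of the 7 mitosis genes 0 were called by edgeR or DESeq2, and 0 had an unadjusted p under 0.05 except Cdc20 (0.46 ± 0.22), which edgeR called higher without HEPES 5 (0.0268).

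Mki67 in the untreated media was at 18.3, 22.6 and 21.9 CPM in MOPS and 25.9, 24.9 and 21.3 CPM in HEPES, with overlapping groups. Its difference of -0.20 ± 0.075 passed the test narrowly (adjusted p = 0.0341, edgeR), and was not called with RLE size factors (-0.17, adjusted p = 0.0577), nor without MOPS replicate 1 (-0.11, adjusted p = 0.192), HEPES replicate 4 (-0.15, 0.155) or HEPES replicate 5 (-0.17, 0.115). Over all alternatives its adjusted p was 0.00117 to 0.192. Single libraries also decided 4 other calls, given here with the adjusted p by edgeR without each such library. For Mcm2 (-0.23 ± 0.084) these were MOPS 2 (0.0749), MOPS 3 (0.0938), HEPES 5 (0.119). For Mcm3 (-0.16 ± 0.062) they were MOPS 1 (0.0815), MOPS 3 (0.135), HEPES 5 (0.163). For Mcm5 (-0.40 ± 0.14) they were MOPS 1 (0.0518), MOPS 3 (0.0609), HEPES 5 (0.0608), HEPES 6 (0.0522). For Ccne1 (0.72 ± 0.29) they were MOPS 1 (0.124), MOPS 2 (0.0733), MOPS 3 (0.0571), HEPES 4 (0.14), HEPES 6 (0.0705). Processing choices ended 3 of these calls as well (adjusted p, by edgeR but for DESeq2): Mcm2 with DESeq2 (0.0771), Mcm3 with RLE size factors (0.0629), total counts (0.0567) and DESeq2 (0.108), and Ccne1 with no low-count filter (0.0769) and DESeq2 (0.0698). Other settings called Ccnd3 and Ccnd2 lower in MOPS, which the main fit did not (adjusted p by edgeR). For Ccnd3 these were no low-count filter (0.0116) and the groups fitted alone (0.0138). Leaving out HEPES 4 (0.00958), MOPS plus LPS 7 (0.0324) or MOPS plus LPS 9 (0.0164) did so too. For Ccnd2 they were no low-count filter (0.00207) and leaving out HEPES 4 (8.98e-05). Without HEPES replicate 5 the count of members lower in MOPS was 6 in place of 10.

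With LPS, the same comparison of media gave 10 members higher and 7 lower in MOPS, 27% and 18.9%, where 26.9% of all genes tested were higher and 26.9% lower. Mki67 was lower in MOPS with LPS, at 321, 329 and 307 CPM against 471, 444 and 440.2 CPM in HEPES plus LPS, without overlap (-0.50 ± 0.055, 1.42-fold lower, adjusted p = 1.43e-07, edgeR). Cdkn1a (-0.37 ± 0.038), Tyms (-1.28 ± 0.19) and Cdt1 (-0.30 ± 0.085) were lower as well. Cdkn2c (0.87 ± 0.14), Rb1 (0.59 ± 0.055), Mcm7 (0.64 ± 0.14), Tk1 (0.81 ± 0.15) and Plk1 (2.1 ± 0.54) were higher in MOPS with LPS. Plk1 rested on 42 counts over the 3 MOPS libraries with LPS and 9 over the 3 HEPES libraries with LPS. Single libraries decided 8 of these calls, again with the adjusted p by edgeR without each such library. For Aurkb (1.88 ± 0.55) this was MOPS plus LPS 7 (0.0995). For Mcm5 (-0.47 ± 0.15) it was MOPS plus LPS 8 (0.063). For E2f2 (0.83 ± 0.27) these were MOPS plus LPS 7 (0.0579), HEPES plus LPS 10 (0.055). For Gmnn (0.92 ± 0.33) they were MOPS plus LPS 7 (0.0505), MOPS plus LPS 9 (0.0703), HEPES plus LPS 10 (0.178), HEPES plus LPS 11 (0.106). For Ccnd3 (0.26 ± 0.10) they were MOPS plus LPS 8 (0.0676), MOPS plus LPS 9 (0.359), HEPES plus LPS 10 (0.193), HEPES plus LPS 11 (0.182), HEPES plus LPS 12 (0.0953). For Ccne1 (0.99 ± 0.41) they were MOPS 1 (0.0507), MOPS 2 (0.0517), MOPS plus LPS 8 (0.384), HEPES plus LPS 10 (0.0982), HEPES plus LPS 11 (0.0745), HEPES plus LPS 12 (0.127). For Ccna2 (-0.84 ± 0.35) they were HEPES 5 (0.0503), MOPS plus LPS 8 (0.0842), MOPS plus LPS 9 (0.126), HEPES plus LPS 12 (0.295). For E2f8 (-0.48 ± 0.20) they were MOPS plus LPS 9 (0.159), HEPES plus LPS 10 (0.0995), HEPES plus LPS 11 (0.0681). Processing choices also ended 3 of them (adjusted p, by edgeR but for DESeq2): Ccna2 with total counts (0.0738), no low-count filter (0.0805), DESeq2 (0.0561) and the groups fitted alone (0.069), E2f8 with total counts (0.105), no low-count filter (0.0696) and DESeq2 (0.0568), and Ccne1 with no low-count filter (0.0739) and DESeq2 (0.0683). Calls were gained too (adjusted p by edgeR). Ccnd2, whose groups did not overlap, was lower in MOPS with no low-count filter (0.00864) and with the groups fitted alone (0.00447). It was also lower without HEPES 4 (0.00772) or HEPES 6 (0.0154). With total counts Mcm2 (0.0123), Cdkn1b (0.0222) and E2f1 (0.0197) were higher, as was Ccnb1 without MOPS plus LPS 7 (0.0294). Without HEPES with LPS replicate 10, 6 members in place of 10 were higher.

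A pair of members changed sides between the resting and the LPS comparison of media. Cdt1 and Cdkn1a were higher in MOPS without LPS and lower in MOPS with it, 4 members (Mcm7, Tk1, Ccne1 and Rb1) were higher in MOPS in both, and 3 (Mki67, Mcm5 and Tyms) were lower in both. The share of all genes called in both comparisons is not given here, so these counts only list the members. B cell markers were higher in MOPS in both comparisons, 7 of 10 without LPS and 9 of 10 with it, with 1 lower in each. Of all genes tested, 24.3% were higher and 25.4% lower without LPS, and 26.9% each way with it. The part of B cells in the differences between media was not tested.

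**Figure D5:**
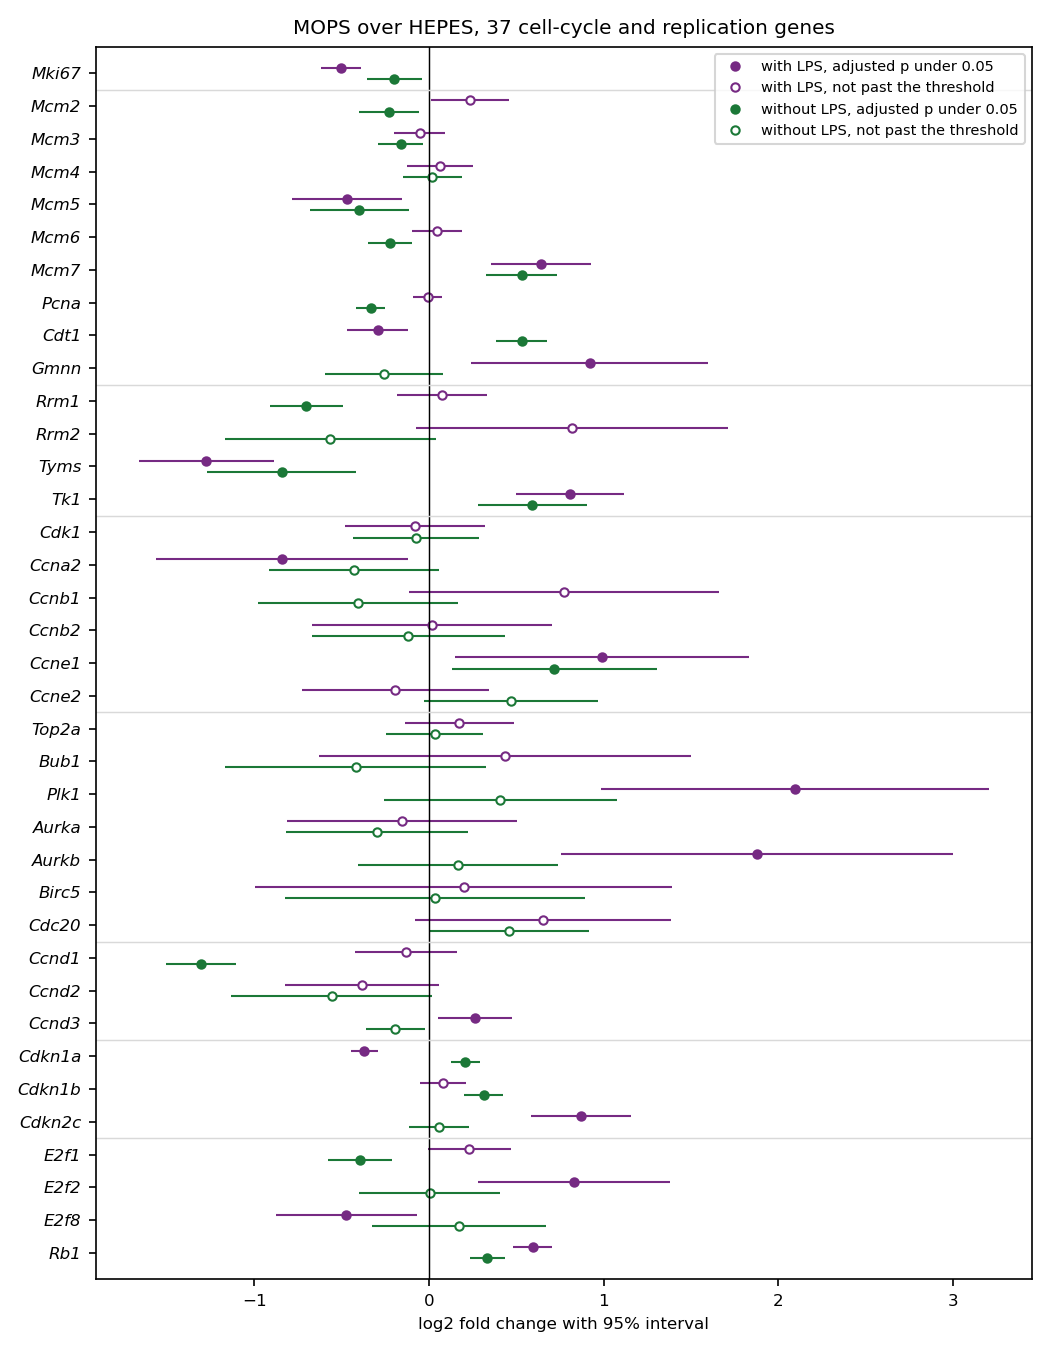
Log2 fold change of MOPS over HEPES with its 95% interval for each of the 37 genes with LPS (purple, upper point) and without LPS (green, lower point); filled points are past an adjusted p of 0.05. Ccnd1 at -1.31 without LPS is the lowest value and Plk1 at 2.1 with LPS the highest.

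Whether LPS acted differently in the 2 media was tested as a difference of differences, the log2 change with LPS in MOPS less the one in HEPES. It was past the threshold for 18 members, 14 positive and 4 negative (37.8% and 10.8%), where 21.9% of all genes tested were positive, 17.6% negative and 39.4% either. Of the 14, 13 had a negative LPS value in both media, less negative in MOPS. Among the positive values, the widest that held under every alternative was that of Ccnd1 (1.18 ± 0.17, adjusted p = 2.18e-06, edgeR), followed by Cdkn2c (0.81 ± 0.16), Rrm1 (0.78 ± 0.16), E2f1 (0.63 ± 0.15) and Ccnd3 (0.45 ± 0.13). Pcna rose by more in MOPS (0.33 ± 0.058). The 4 negative ones were Mki67 (-0.31 ± 0.093) and Cdkn1a (-0.58 ± 0.055), which rose by less in MOPS, and Cdt1 (-0.83 ± 0.11) and Cdkn1b (-0.23 ± 0.085), which fell by more in MOPS. The value of Mki67 was not called without MOPS replicate 2 (-0.24, adjusted p = 0.053, edgeR). The interaction of Cdkn1b was not called with total counts or without MOPS replicate 1, HEPES replicate 6 or MOPS with LPS replicate 9 (adjusted p = 0.113, 0.0556, 0.0674 and 0.0932). Of the 10 B cell markers 8 were also positive and 0 negative, at an adjusted or an unadjusted p under 0.05 by edgeR, and their part in these differences was not tested. The count of positive members was 9 without MOPS with LPS replicate 8 and 8 without HEPES with LPS replicate 12.

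Reads shared with other genes limit some of these values. Of the 37 genes, 8 share exons or introns with a gene of the opposite strand whose own count is 10% or more of theirs, and the strand setting of the counting is not given in the sources used here. These are Mcm7, Tk1, Ccna2, Ccne2, Cdc20, Ccnd1, Ccnd3 and Rb1. The neighbour's count was 7437.5% of that of Cdc20 (Elovl1), 1753% for Ccne2 (Ints8), 1464% for Ccna2 (Exosc9) and 652% for Mcm7 (Cops6). Exon bases shared with these neighbours were 53 of 1868 for Cdc20, 609 of 3495 for Ccne2, 510 of 4083 for Ccna2 and 64 of 4426 for Mcm7. For the other neighbours the count was 27.7% to 125% of the member's. Their shared exon bases were 321 of 4426 for Ap4m1 at Mcm7, 488 of 6015 for Rcbtb2 and 408 of 6015 for Lpar6 at Rb1. Bysl shared 361 of 8775 with Ccnd3 and Afmid 83 of 5198 with Tk1. For Oraov1 at Ccnd1 no count of shared bases was available. Some neighbours had positive LPS values: Exosc9 (0.10 in MOPS and 0.39 in HEPES) at Ccna2, Ints8 (0.34 in MOPS and 0.72 in HEPES) at Ccne2, Elovl1 (0.20 in MOPS and 0.30 in HEPES) at Cdc20 and Cops6 (0.12 in MOPS and 0.29 in HEPES) at Mcm7. Others had negative values, as their partners among the 37 did: Ap4m1 (-1.07 in MOPS and -0.94 in HEPES) at Mcm7, Oraov1 (-0.62 in MOPS and -0.39 in HEPES) at Ccnd1, and Rcbtb2 (-0.43 in MOPS and -0.92 in HEPES) and Lpar6 (-3.66 in MOPS and -3.72 in HEPES) at Rb1. Afmid at Tk1 (0.33 and -0.44) and Bysl at Ccnd3 (-0.014 and 0.74) differed in sign between media. Their part in the values of the 8 genes was not tested. The pseudogene row Ccnb2-ps held 56.0% of the count of Ccnb2 and Ccnb1-ps 8.75% of that of Ccnb1, so the counts of these 2 genes are uncertain. Ccnb2-ps had LPS values of -1.28 in MOPS and -1.66 in HEPES, and its part in the values of Ccnb2 was not tested.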

How the data were processed

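RNA-seq libraries of resident peritoneal macrophages were analysed, 3 in each of 4 groups. The deposited table holds raw counts per gene and library, per the file headers. The submitters' processing notes name CASAVA 1.8, HISAT2 2.0.5, featureCounts 1.5.0-p3 and the build mm10, with no roles stated. For strand setting and annotation release, the sources used here give nothing. Gene lengths are the authors' deposited values.

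The counts went into edgeR 4.0.16 (R 4.3.3). After filterByExpr 14506 genes were left, TMM set the scaling, and the quasi-likelihood test (robust) was run on 1 model with a mean per group over the 12 libraries, with 8 residual degrees of freedom. P-values were adjusted by Benjamini-Hochberg over all 14506 genes, and genes were called under 0.05. Standard errors are the absolute log2 change over the root of its F, and 95% intervals use the t distribution with the fit's degrees of freedom. Alternatives were RLE or total-count scaling, other filters, DESeq2 1.42.0, fits of 2 groups alone and leaving out each library. No 2 libraries of a group held the same values (chi-square per degree of freedom 2.66 to 6.54, over genes with at least 20 counts in the pair). The fits were tested on simulated data, with 50 genes changed at each of 1.5-, 2-, 3- and 4-fold, as many raised as lowered. At 1.5-fold 86% were recovered, and at 2-fold or more at least 98%. False calls numbered 9 for LPS in HEPES and 13 for the untreated media. The simulation held no shift of composition such as LPS gave here, so it does not test the calls under that shift.

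All 37 members are described. From each wider list up to 3 called genes per comparison with the smallest p could be named, plus Myc, Trp53, Mdm2, Cdk2, Cdk4 and Cdk6. Members and lists were chosen with earlier results of these data known. Of the other marker lists, T and NK cell (9 genes), mast cell and granulocyte (13), dendritic cell (6) and mesothelial and stromal (9) markers summed to at most 1.22, 34.9, 56.2 and 9.67 CPM in any library, with Ncr1, Ly6g and Prg2 at 0 in all.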

Additional observations from a re-analysis of the deposited data

Results flagged for a closer look

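The LPS change differed between the media, by the interaction test of edgeR at an adjusted p under 0.05, for 18 of the 37 genes. Of all genes tested, 39.4% passed the same test. Values are the log2 change with LPS in MOPS less the one in HEPES. Replication genes among them were Mcm2 (0.46), Mcm6 (0.27), Pcna (0.33), Cdt1 (-0.83) and Gmnn (1.18). Nucleotide and mitosis genes were Rrm1 (0.78), Rrm2 (1.38), Plk1 (1.69) and Aurkb (1.71). Cyclins, inhibitors and the E2F and RB axis gave Ccnd1 (1.18), Ccnd3 (0.45), Cdkn1a (-0.58), Cdkn1b (-0.23), Cdkn2c (0.81), E2f1 (0.63), E2f2 (0.83) and Rb1 (0.26). Mki67 was at -0.31. The calls of Pcna, Cdt1, Rrm1, Ccnd1, Ccnd3, Cdkn1a, Cdkn2c and E2f1 held under every alternative tried. Those of the other 10 were lost without single libraries, given with the adjusted p by edgeR without each: for Mki67, MOPS 2 (0.053). For Mcm2, HEPES plus LPS 10 (0.0658). For Mcm6, MOPS 3 (0.0542), HEPES 5 (0.0542), MOPS plus LPS 8 (0.142), MOPS plus LPS 9 (0.0674), HEPES plus LPS 10 (0.158), HEPES plus LPS 12 (0.126). For Gmnn, HEPES plus LPS 10 (0.0767), HEPES plus LPS 11 (0.0622). For Rrm2, MOPS 1 (0.0875), HEPES 4 (0.0609), HEPES 5 (0.0788), MOPS plus LPS 7 (0.0853), MOPS plus LPS 8 (0.0694), MOPS plus LPS 9 (0.0544), HEPES plus LPS 11 (0.0804), HEPES plus LPS 12 (0.125). For Plk1, MOPS 1 (0.056), MOPS 3 (0.066), HEPES 4 (0.104), HEPES 5 (0.0637), MOPS plus LPS 8 (0.0759), MOPS plus LPS 9 (0.0905), HEPES plus LPS 11 (0.127), HEPES plus LPS 12 (0.157). For Aurkb, MOPS plus LPS 7 (0.233), HEPES plus LPS 11 (0.139), HEPES plus LPS 12 (0.103). For Cdkn1b, MOPS 1 (0.0556), HEPES 6 (0.0674), MOPS plus LPS 9 (0.0932). For E2f2, MOPS 2 (0.0866), MOPS 3 (0.101), HEPES 4 (0.0746), HEPES 5 (0.0521), HEPES 6 (0.0919), MOPS plus LPS 7 (0.147), MOPS plus LPS 8 (0.0549), MOPS plus LPS 9 (0.0796), HEPES plus LPS 10 (0.143), HEPES plus LPS 11 (0.106), HEPES plus LPS 12 (0.0754). For Rb1, MOPS plus LPS 8 (0.059), HEPES plus LPS 12 (0.0875). Processing choices ended calls too (adjusted p, by edgeR but for DESeq2): Mcm6 with DESeq2 (0.0811), Rrm2 with no low-count filter (0.0731) and DESeq2 (0.0766), Plk1 with DESeq2 (0.0584), E2f2 with RLE size factors (0.0625), no low-count filter (0.101) and DESeq2 (0.112), and Cdkn1b with total counts (0.113). Leaving out single libraries also gained calls (adjusted p by edgeR). Ccnb1 was positive without MOPS plus LPS 7 (0.0155) or HEPES plus LPS 11 (0.0494). Ccne2 was negative without MOPS plus LPS 9 (0.0497) and E2f8 without HEPES 4 (0.0374). Plk1 and Aurkb had 1 to 7 counts in each of the HEPES plus LPS libraries.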

How the results depend on the processing

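No paired analysis was run, since the labels name no pairs. The replicate numbers run on through all 12 libraries, so they cannot show whether libraries of different groups were paired. Of the recomputed changes of the 37 genes in 5 comparisons, 3083 kept their side of the threshold, 132 lost the call and 57 gained it. Of those that kept their side, 82 values called in neither fit changed sign. In 5 others, all with total counts alone, the sign turned and at least 1 of the fits made a call: for LPS in MOPS Cdk1 (-0.50), and for LPS in HEPES Mcm5 (-0.56), Pcna (-0.33), Tk1 (-0.068) and Cdk1 (-0.57). Total counts also gave 4 members higher and 30 lower for LPS in MOPS, in place of 7 and 17, as this scaling lowers the median of all genes. Mki67 between the untreated media was -0.17 with RLE size factors, below the call, and -0.28 to -0.11 without single libraries; its interaction was -0.39 to -0.23. Its LPS change ranged from 3.41 to 3.99 in MOPS and 3.64 to 4.29 in HEPES over every alternative. Without single libraries, members lower in MOPS at rest numbered 6 to 11, members higher in MOPS with LPS 6 to 10 and positive interactions 8 to 13; the cause was not tested. Members near 1 CPM, such as the mitosis genes other than Top2a, have wide errors.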

Other observations

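Within 500000 bases of Mki67 on chromosome 7, the table lists 18 other genes, and 2 of them had enough counts to be tested. This window was chosen after the values of Mki67 were seen. Ptpre, a receptor-type tyrosine phosphatase gene at chr7:135537481-135686293 on the plus strand, lies next to Mki67, which is on the minus strand, and their 3′ ends face each other. Ptpre changed with LPS by 2.0 in MOPS (adjusted p = 9.30e-29, edgeR) and 2.09 in HEPES (adjusted p = 1.91e-29, edgeR). The noncoding 5830432E09Rik, antisense within Ptpre, changed by 1.68 and 1.31. Mki67 itself changed by 3.92 and 4.23, more than either.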
